A study of Mus musculus with 2 samples.

Results

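Endothelial bins were squares of tissue in which transcripts of blood vessel lining cells were counted. Visium HD lays a grid of barcoded squares under a tissue section and counts captured gene probes as unique molecular identifiers (UMIs), and the squares used here, called bins, were 16 µm wide. A bin was a member if it held at least 100 UMIs in all, at least 2 UMIs summed over Cldn5, Pecam1, Cdh5 and Flt1, and 0 UMIs of the smooth muscle genes Myh11 and Acta2. Ly6c1, the last of the 5 genes named for the rule, was not analysed here, so the rule was applied with 4 genes. Members numbered 3092 of 119617 bins 3 days after injury (2.58%, 95% interval 2.50 to 2.68) and 1580 of 103316 bins 28 days after injury (1.53%, 1.46 to 1.61). A further 498 and 335 bins passed the marker threshold but held smooth muscle UMIs and were left out.

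The bins came from coronal brain sections of male C57Bl6 mice (C57BL/6J in the methods), aged 3 months when controlled cortical impact (CCI) was made. CCI is an injury made by driving a piston into the brain surface of 1 hemisphere, which the study used as a model of focal traumatic brain injury. The 28 days mouse was thus older at sampling than the 3 days mouse. The samples formed 2 groups, 3 days and 28 days after CCI, with 1 section of 1 mouse in each and no further treatment. No section of a sham-operated mouse was analysed here, so the opposite side of the same injured brain served as the reference, and that side can itself respond to injury. With 1 section per group no difference could be set against the spread between animals. All intervals are at 95% and cover counting error only, and bins of a section share their animal, so no p-values were computed. The 3 days section held 120615873 UMIs with a median of 836 per bin, and the 28 days section held 82422389 UMIs with a median of 596.

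Endothelial cells line every brain vessel. In brain and spinal cord they form the blood-brain barrier, in which tight junctions seal the gaps between cells and dedicated carriers move glucose, amino acids, lipids and thyroid hormone across the cell, a program that Wnt signals from the surrounding tissue maintain. After injury endothelial cells can present adhesion molecules to blood leukocytes, lay down new basement membrane, divide and sprout.

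The rule genes mark the lineage in different ways: Cldn5 encodes a tight junction protein, Pecam1 and Cdh5 encode adhesion proteins of the endothelial cell border, and Flt1 encodes a receptor for vascular endothelial growth factor. Their UMI counts chose the members and are given as a description. Cldn5 was present in 70.7% of members at 3 days and 66.1% at 28 days, Flt1 in 57.0% and 61.7%, Pecam1 in 31.4% and 27.0%, and Cdh5 in 12.5% and 10.9%. At least 2 of the 4 genes were present in 63.5% of members at 3 days and in 61.0% at 28 days, and the other members passed on UMIs of a single gene.

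The label was checked against 24 other genes that most endothelial cells express, called pan-endothelial here, among them Egfl7, Ptprb, Kdr, Emcn and Tie1. Levels are given as CPM, the UMIs of a gene or list per 1000000 UMIs of the pooled bins. Pan-endothelial transcripts summed to 429 CPM in bins of the 3 days section with no rule-gene UMI, 1006 CPM in bins with 1, just outside the threshold, 1735 CPM in bins with 2, just inside it, and 3209 CPM in bins with 3 or more. The same steps were 439, 1043, 1729 and 2950 CPM at 28 days. The level was higher at each step in both sections and had no gap at the threshold, and bins below it also held endothelial RNA. Members were not pure endothelium: a bin can hold parts of several cells, and 8 neuron genes, among them Snap25, summed to 6230 CPM in members of the opposite side at 3 days. Members were also somewhat deeper than other bins, with a median of 974.5 against 847 UMIs at 3 days and 756.5 against 607 UMIs at 28 days.

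To place the members relative to the lesion, a phagocyte-rich area was drawn from Cd68 and Lyz2, a lysosomal and a secreted protein of macrophages and activated microglia. The area held 1724 bins at 3 days and 5171 bins at 28 days, all on the injured side. At 3 days it reached the edge of the captured field, so tissue beyond that edge was not analysed here. Members inside the area or within 100 µm of it are called near members, 261 at 3 days and 195 at 28 days, and were compared with 1771 and 860 members of the opposite side. Near members covered fewer brain regions than the opposite side, which also holds hypothalamus and choroid plexus, and were shallower, with a median of 748 against 942 UMIs at 3 days and 717 against 797.5 UMIs at 28 days.

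**Figure D1:**
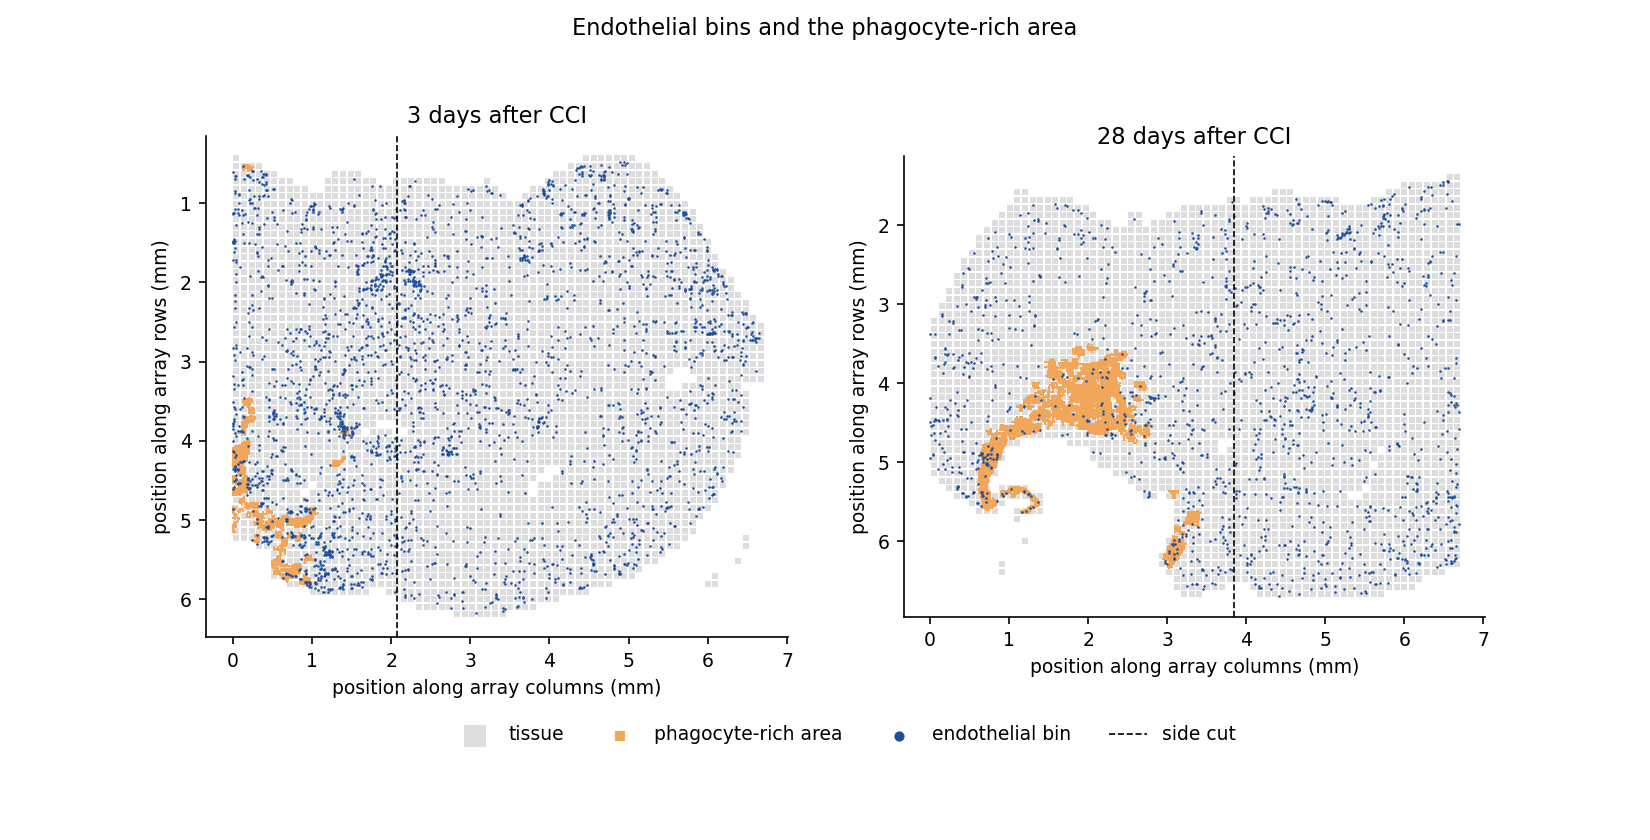
Position of endothelial bins (blue points) on the 2 sections, with tissue in grey, the phagocyte-rich area in orange and the line between injured side (left) and opposite side dashed; both axes are array positions in mm. Members lay throughout both sections, and the area held 1724 bins at 3 days along the edge of the field and the tissue surface and 5171 bins at 28 days around a gap in the tissue.

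Endothelial bins were most frequent beside the lesion 3 days after CCI. Of the bins near the area 4.97% were members (4.40 to 5.59), against 2.20% (2.10 to 2.30) on the opposite side. The share was 4.58% inside the area, 5.16% up to 100 µm from it, 4.72% from 100 to 250 µm, 3.23% from 250 to 500 µm, 2.94% from 500 to 1000 µm and 2.72% beyond. It was thus highest in and around the area and above the opposite side in every band. At 28 days the share was 1.94% (1.68 to 2.23) near the area and 1.60% (1.49 to 1.71) on the opposite side, and it reached 2.17% inside the area but lay between 1.25% and 1.71% in the bands outside it. Since deeper bins pass the rule more easily, each bin was also thinned to 300 UMIs, which left out 1158 near and 8918 opposite bins at 3 days and 3070 and 9532 at 28 days as too shallow. With the area kept as drawn from all UMIs, the thinned share was 1.90% (1.51 to 2.37) near and 0.520% (0.468 to 0.575) opposite at 3 days, and 0.790% (0.596 to 1.03) and 0.451% (0.391 to 0.518) at 28 days. Over the whole injured side the thinned share at 28 days was 0.485% (0.419 to 0.558). Inside the area the thinned share at 28 days was 0.612% (0.388 to 0.916). It was higher up to 100 µm from the area (interval 0.685 to 1.41) and lay between 0.337% and 0.604% in the bands further out. The share inside the area at 28 days was thus no longer the highest at equal depth.

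Near members also more often touched another member. Of the near members at 3 days 70.1% touched another member among their 8 surrounding bins, against 41.8% on the opposite side, and of the non-member bins 23.0% near and 13.9% opposite touched one. At 28 days the shares were 37.9% near and 28.3% opposite for members, and 12.2% of non-members near the area and a slightly smaller share opposite touched one. Members and non-members were thus both more often beside a member near the area, where members were more frequent. More vessels, wider vessels and more RNA per cell would each raise these values and cannot be told apart in bins.

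**Figure D2:**
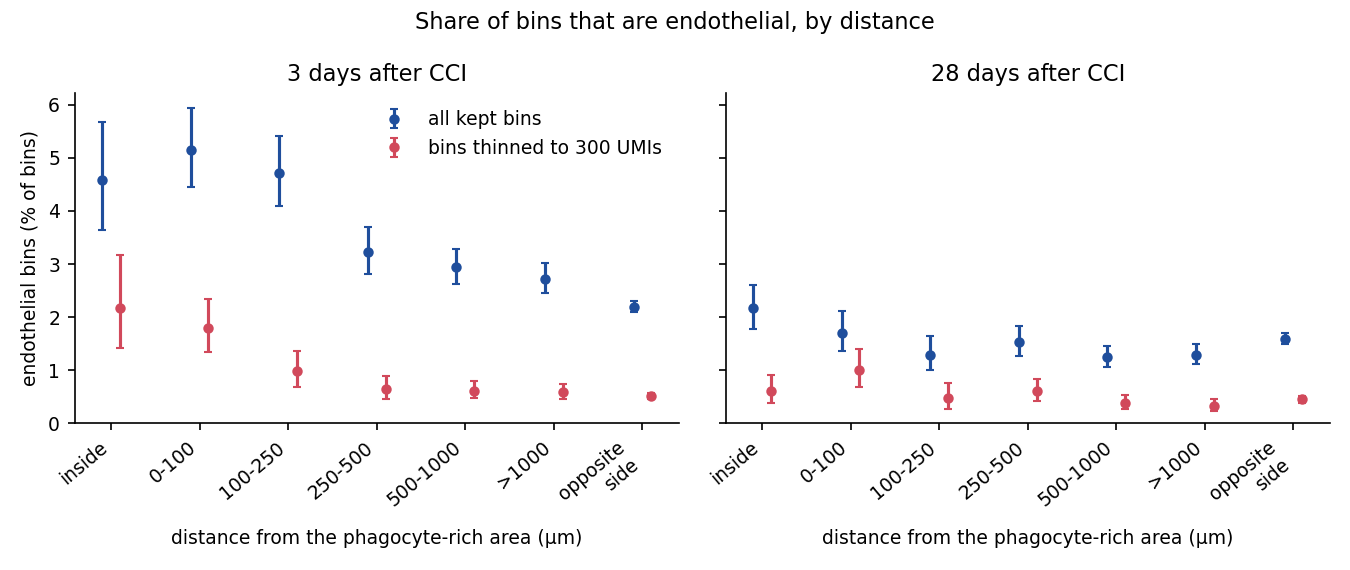
Share of bins that were endothelial (%, y axis) inside the phagocyte-rich area, in 5 distance bands around it (µm) and on the opposite side, with exact 95% binomial intervals; blue points are all kept bins and red points bins thinned to 300 UMIs. At 3 days the share was 4.58% inside the area and 2.20% on the opposite side, and at 28 days 2.17% and 1.60%.

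Expression was compared as the log2 ratio of pooled CPM in near members over opposite members, in which 1 is a 2-fold difference, for genes that reached 50 UMIs in the 2 pools together and without the rule genes, Cd68 and Lyz2. A gene was counted as past the fold when this ratio reached 1 in size, a rule of size and not a test. Of 8651 genes at 3 days, 11.5% were past the fold higher and 13.8% lower near the area, with a median log2 ratio of 0.02. Of 5721 genes at 28 days, 8.29% were higher and 23% lower, with a median of -0.28. A gene that was low on the opposite side could reach 50 UMIs only through a high near pool, and then had to be higher. List counts therefore take only genes that would reach it at the opposite level in both pools, 8404 genes at 3 days, with 9.73% past the fold higher and 14.2% lower, and 5429 genes at 28 days, with 5.36% and 24.3%. These are called counted genes, and list counts are to be read beside these shares. Of the list genes named with values here, Cd93, Lrg1, Apln and Isg15 at 3 days and Vcam1, Lcn2 and B2m at 28 days met the minimum only through the near pool, and so did H2-Aa, Cd74, C3, Gpnmb and Serpina3n at 28 days, which are in no list. The same ratio was taken in neighbours, the non-member bins of the 5 by 5 bins around a member with 0 UMIs of any rule gene. The difference of the 2 ratios, members minus neighbours, was past the fold higher for 1.72% and lower for 5.03% of genes at 3 days, and for 0.979% and 4.6% at 28 days. Over the whole injured side the shares were smaller, 3.63% higher and 1.61% lower of 10209 genes at 3 days and 3.99% and 1.64% of 7242 genes at 28 days.

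Pan-endothelial transcripts were denser in near members at 3 days. They summed to 5066 CPM near and 1905 CPM opposite, a log2 ratio of 1.41 (1.31 to 1.51). Of 19 counted genes 15 were past the fold higher and none lower. Over the whole injured side 2 of 24 genes were past the fold higher and none lower. Cd93, a surface receptor of endothelial cells, was at 169 CPM near and 19.6 CPM opposite (37 and 39 UMIs, log2 ratio 3.11). Emcn, a sialomucin of capillary and venous endothelium, was at 215 and 50.7 CPM (2.09), and Kdr, the main signalling receptor for vascular endothelial growth factor, at 224 and 53.7 CPM (2.07). Egfl7, a secreted endothelial protein, was at 758 and 288 CPM (1.40), whereas Ptprb, an endothelial phosphatase, was at 356 and 260 CPM (0.46). By distance the list fell from 5324 CPM inside the area over 4981 CPM up to 100 µm and 3233 CPM from 100 to 250 µm to between 1664 and 2089 CPM in the 3 outer bands, close to the opposite side.

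Taken as a sum, neighbours showed the same ratio at a lower level, with 1214 CPM near and 456 CPM opposite (1.41, 1.33 to 1.49). The difference between members and neighbours was -0.00 (-0.13 to 0.12). Gene by gene the median difference was -0.28 over 22 measured genes, Cd93, Icam2 and Robo4 among them. Of these 0 were past the fold higher and 3 lower, against 1.72% and 5.03% of all genes. All kept bins pooled, with no choice of members, had 1512 CPM near and 514 CPM opposite (1.56, 1.51 to 1.60). That pool includes the members. Bins with no rule-gene UMI were at 913 CPM near and 404 CPM opposite, so the higher share of pan-endothelial UMIs was also found outside members. CPM is a share, so it also depends on how much other RNA the bins held. As counts, all kept bins held 4824 pan-endothelial UMIs in 5254 near bins and 42589 in 80501 opposite bins. Per bin that was a smaller difference than in CPM. With bins thinned to 300 UMIs, and members and area found anew in the thinned bins, the ratio in members was 0.70 (0.39 to 0.99).

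At 28 days pan-endothelial transcripts summed to 2670 CPM near and 1800 CPM opposite (0.57, 0.42 to 0.71), and 0 of 12 counted genes were past the fold. Egfl7 was at 367 and 292 CPM (0.34), Ptprb at 449 and 264 CPM (0.77) and Kdr at 51.6 and 55.1 CPM (-0.04, 10 and 47 UMIs). In all kept bins pooled the list was at 842 CPM near and 544 CPM opposite (0.63, 0.59 to 0.68). As counts these bins held 4676 pan-endothelial UMIs in 10032 near bins and 24557 in 53838 opposite bins, nearly the same number per bin. Thinning to 300 UMIs brought the ratio in members to 0.06 (-0.44 to 0.51), so no difference was detectable at that depth. The 3 days value was the larger, but with 1 animal at each time the difference between times was not tested.

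The blood-brain barrier genes differed less than the pan-endothelial genes. The 23 genes of the barrier transport list, called carriers here, summed to 3791 CPM in near members and 3466 CPM in opposite members at 3 days (0.13, 0.02 to 0.23). Some of them, such as Spock2, Itm2a and the transferrin receptor gene Tfrc, are not carriers. Without Itm2a and Pltp, the 2 genes with most near UMIs, the ratio was 0.12 (-0.01 to 0.24). The sum without Spock2, which weighs on the capillary list below, was not taken. Of 21 counted genes 3 were past the fold higher and 1 lower, against 9.73% and 14.2% of all counted genes. The level was nearly flat with distance, between 2974 and 3831 CPM in the 6 bands of the injured side. Slc2a1, the glucose carrier of the barrier, was at 238 and 143 CPM (0.74, 0.27 to 1.16), Abcb1a, the efflux pump P-glycoprotein, at 201 and 153 CPM (0.41, -0.10 to 0.85), and Slco1a4, an organic anion carrier, at 169 and 219 CPM (-0.36, -0.90 to 0.11). These 3 genes were chosen after their values were seen. The highest were Slco2b1, another organic anion carrier, at 146 and 28.6 CPM (2.36, 1.68 to 3.00), and Slc16a1, a carrier of lactate and ketone bodies, at 215 and 95.3 CPM (1.18, 0.68 to 1.64). Which cells of a bin carried these transcripts was not tested. The lowest was Slc22a8, a carrier of organic anions out of the brain, at 27.4 and 72.3 CPM (6 and 144 UMIs, -1.29, -2.87 to -0.24). It was at 20.8 and 14.6 CPM in neighbours, so that its difference between members and neighbours was -1.82 (-3.11 to -0.54), but with the area drawn more widely, at the 99th percentile, its log2 ratio in members was 0.058.

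The carriers thus did not share the higher density of the pan-endothelial list. Per 100 pan-endothelial UMIs, near members held 74.8 UMIs of the carrier list at 3 days and opposite members held 182, a log2 ratio of -1.28 (-1.42 to -1.14), in a measure added after the other results were seen. Dividing by a list that was itself denser lowers every gene, however. Over all 8629 other genes the median on this scale was -1.39, with 70% past the fold lower and 1.02% higher, against 14 and 0 of 21 carriers. The carriers did not stand below other genes on this scale, and nothing particular to them was read from it. In neighbours the carrier list had a CPM ratio of 0.35 (0.28 to 0.41) at 3 days, so members minus neighbours was -0.22 (-0.34 to -0.09). Gene by gene the median difference was -0.54 over 21 carriers. Of these 0 were past the fold higher and 4 lower, against 1.72% and 5.03% of all genes.

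At 28 days the same carriers summed to 3563 CPM near and 3270 CPM opposite (0.12, 0.00 to 0.24), and of 16 counted genes 1, Slc16a1 at 253 and 63.3 CPM (2.00, 1.41 to 2.58), was past the fold higher and 2 lower. Of all counted genes 5.36% were past the fold higher and 24.3% lower. Per 100 pan-endothelial UMIs there were 133 near and 182 opposite (-0.44, -0.63 to -0.26). Of 17 carriers with at least 50 UMIs 1 was past the fold higher and 5 lower. These 17 include Slco2b1, which met the minimum only through the near pool. Over 5709 other genes the median was -0.85, with 4.31% past the fold higher and 43.5% lower. Pltp, a phospholipid transfer protein, was at 733 and 388 CPM in members (0.92) and at 412 and 88.7 CPM in neighbours (2.22), a difference of -1.29 (-1.61 to -0.98). With Pltp kept, the carriers' CPM ratio at 28 days was 0.38 (0.33 to 0.44) in neighbours, a difference of -0.26 (-0.39 to -0.13). Without Pltp the carriers had a ratio of -0.025 (-0.16 to 0.11) in members at 28 days and 0.13 in neighbours, a difference of -0.15 (-0.30 to -0.01). Gene by gene the median difference was -0.38 over 17 carriers. Of these 1 was past the fold higher and 3 lower, against 0.979% and 4.6% of all genes.

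Junction genes lay between the pan-endothelial genes and the carriers. The list of 14 genes without Cldn5, Cdh5 and Pecam1 summed to 1973 CPM near and 1170 CPM opposite at 3 days (0.76, 0.60 to 0.90), and 4 of 11 counted genes were past the fold higher. Tjp1, a scaffold protein of tight junctions, was at 566 and 324 CPM (0.81), the junctional adhesion molecule F11r at 100 and 27.1 CPM (1.91) and Esam, an endothelial adhesion molecule also held in the pan-endothelial list, at 407 and 133 CPM (1.62). At 28 days the list was at 1580 and 1091 CPM (0.54, 0.34 to 0.72), with 1 of 7 counted genes past the fold higher. Wnt pathway genes of the barrier program gave 1338 and 985 CPM at 3 days (0.44, 0.26 to 0.62), with 1 of 12 counted genes, Foxf2, past the fold higher, and at 28 days 1270 and 933 CPM (0.45, 0.23 to 0.65), with 1 of 4, Apcdd1, past the fold higher. Of all counted genes 9.73% were past the fold higher at 3 days and 5.36% at 28 days. With bins thinned to 300 UMIs the direction of the Wnt list at 3 days turned (-0.17). Apcdd1, a Wnt-induced inhibitor of Wnt signalling, was at 155 and 79.3 CPM at 3 days (0.99) and at 227 and 78.5 CPM at 28 days (1.54, 0.95 to 2.10).

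**Figure D3:**
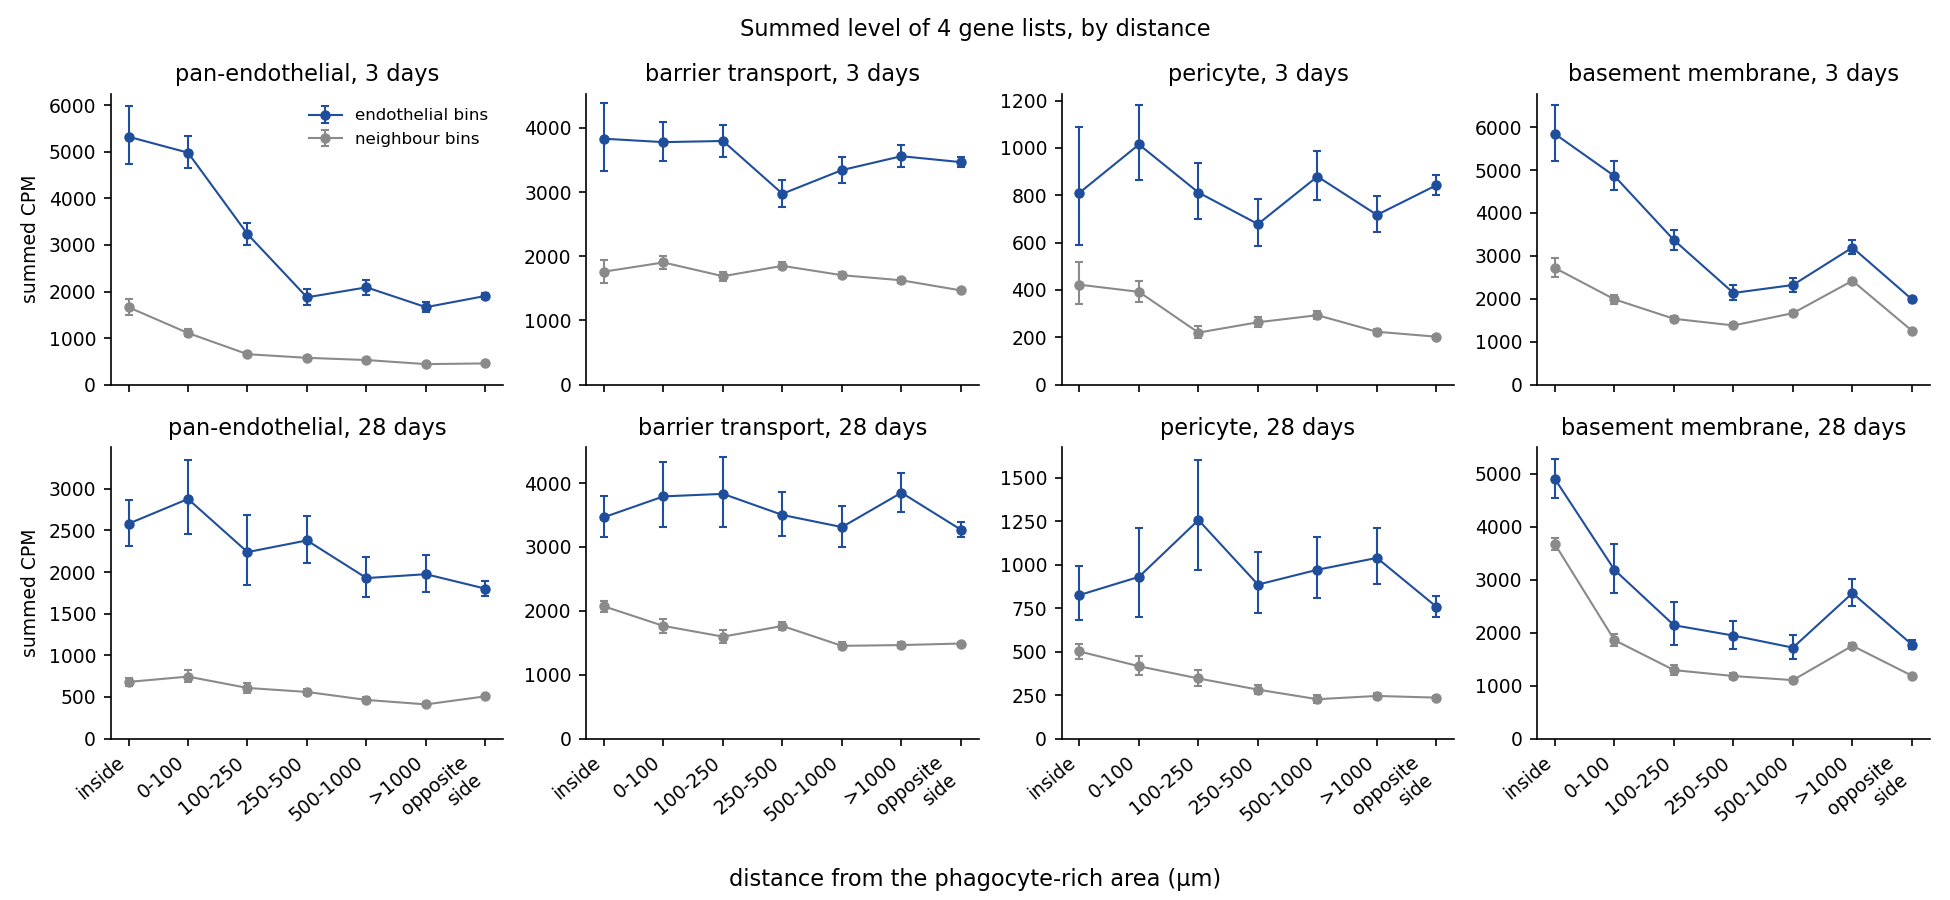
Summed CPM (y axis) of 4 gene lists in endothelial bins (blue) and their neighbours (grey) by distance from the phagocyte-rich area (µm), at 3 days (top) and 28 days (bottom), with exact 95% intervals. In endothelial bins at 3 days pan-endothelial genes ranged from 5324 CPM inside the area to 1664 CPM beyond 1000 µm, while barrier carriers stayed between 2974 and 3831 CPM.

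**Figure D4:**
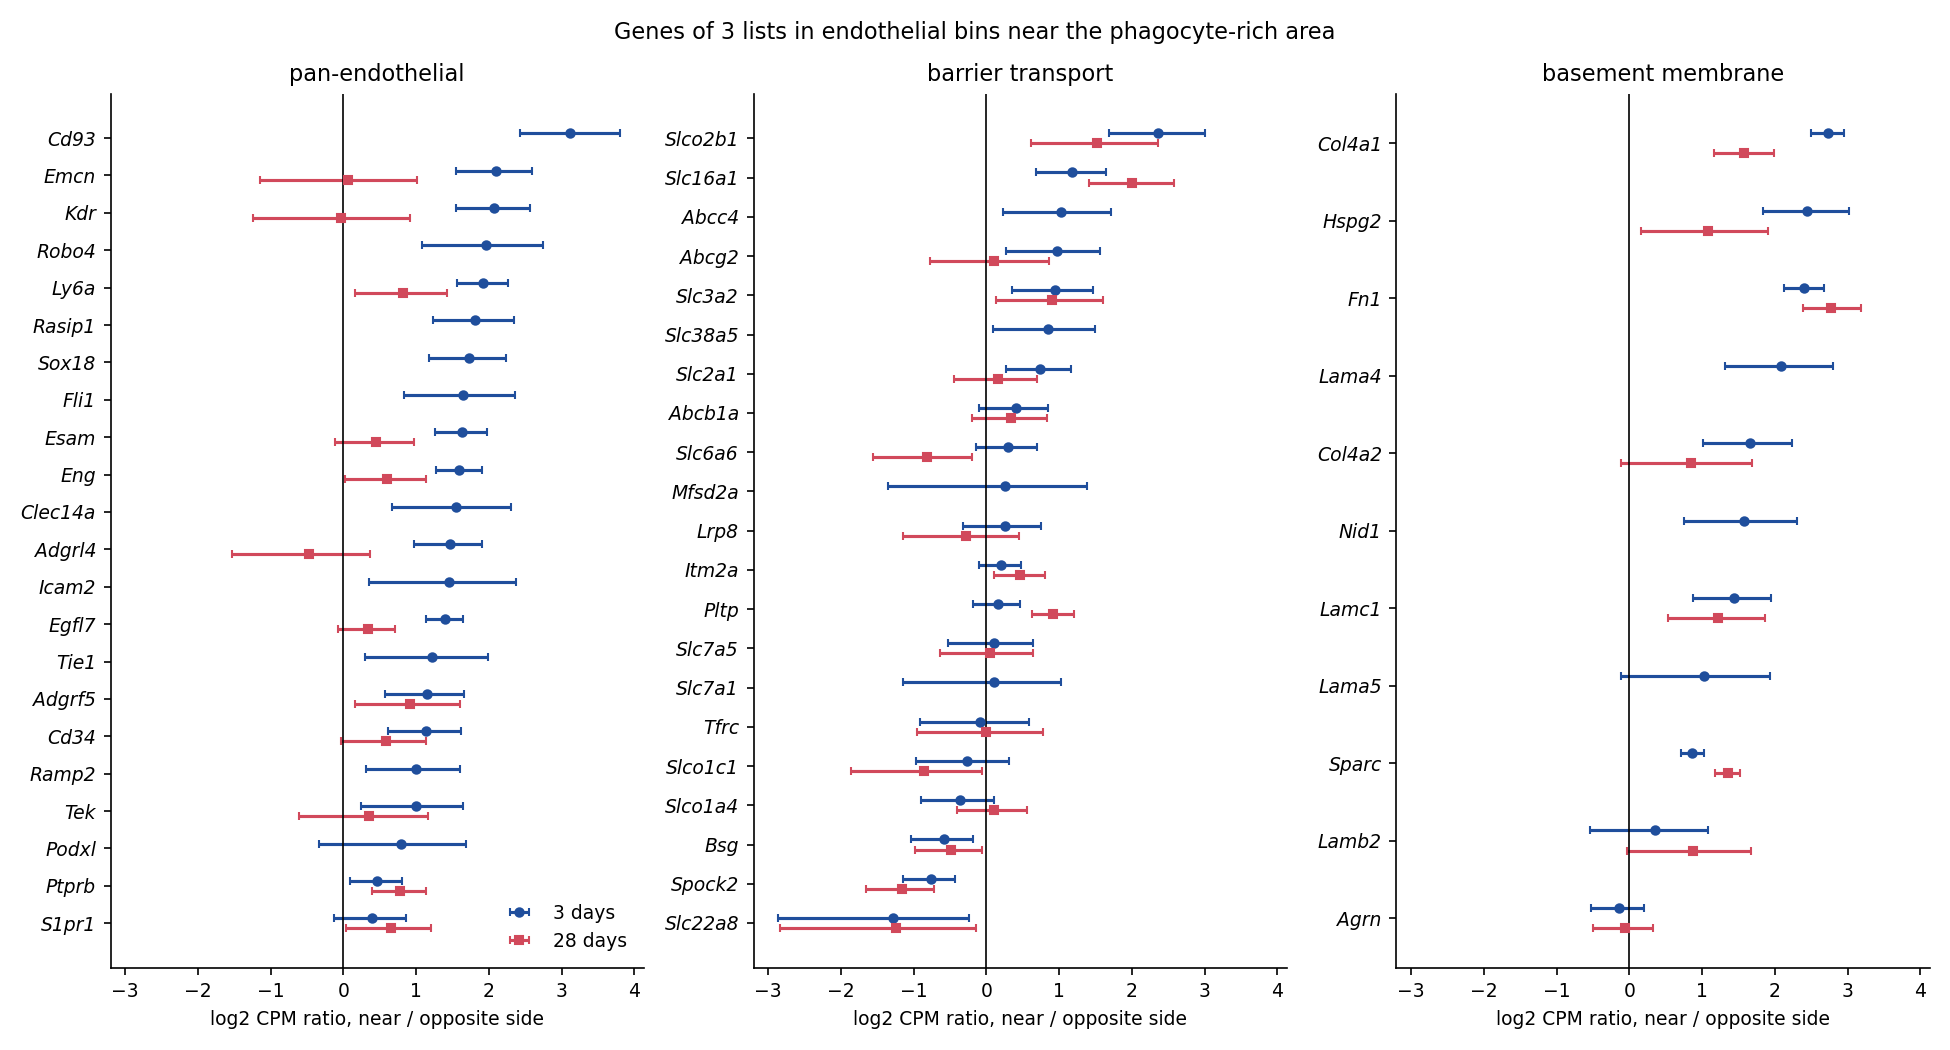
Log2 CPM ratio of near over opposite endothelial bins (x axis) for each measured gene of 3 lists, with exact 95% intervals, at 3 days (blue circles) and 28 days (red squares, where the gene had at least 50 UMIs). At 3 days 15 of 19 counted pan-endothelial genes, 3 of 21 barrier carriers and 8 of 11 basement membrane genes lay at or above 1, against 9.73% of all counted genes, and the 3 pan-endothelial genes also drawn, Cd93, Icam2 and Robo4, met the minimum only through the near pool.

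Genes of vessel segments differed among themselves. The capillary list, which shares 5 genes with the carriers, was at 1485 CPM near and 1507 CPM opposite at 3 days (-0.02), and the arterial list at 854 and 873 CPM (-0.03). Single genes weighed on both sums: the capillary ratio was 0.28 (0.08 to 0.46) without Spock2, and the arterial ratio was 0.45 (0.15 to 0.74) without Mgp and Stmn2. Their 28 days ratios were 0.18 (-0.00 to 0.36) for the capillary list and -0.39 (-0.70 to -0.09) for the arterial list. Single genes weighed on these too: the capillary ratio was -0.25 (-0.48 to -0.03) without Slc38a3 and Slc16a1, and the arterial ratio was -0.85 (-1.24 to -0.50) without Mgp. Car4, a carbonic anhydrase of capillary endothelium, was at 59.4 and 99.8 CPM at 3 days (-0.70) and at 51.6 and 109 CPM at 28 days (-1.02, -2.18 to -0.13). In neighbours Car4 was lower by more at 3 days, at 16.3 and 61.9 CPM (-1.89), so that its difference between members and neighbours was 1.19 (0.16 to 2.22), but this turned to -0.26 with the reference taken from the injured side. By 28 days the difference was -0.13 (-1.15 to 0.88). The lowest arterial gene, Stmn2 (-1.43 at 3 days), is far better known from neurons, and neuron genes were low in the same bins. The venous list was high, at 5093 and 1252 CPM at 3 days (2.02) and at 6140 and 840 CPM at 28 days (2.87), but Apod alone gave 844 of its 1115 near UMIs at 3 days and 821 of 1189 at 28 days, and Apod, a lipid carrier that oligodendrocytes and fibroblasts also make, had a higher ratio in neighbours (3.16 at 3 days, 3.08 at 28 days) than in members (2.16 and 2.85). Without Apod the venous ratio in members at 3 days was 1.66 (1.46 to 1.86), and without Apod and Lcn2 at 28 days it was 1.38 (1.05 to 1.70). The rest of the list then had a higher ratio in members than in neighbours, where it was 1.06 and 0.97, a difference of 0.61 (0.36 to 0.85) at 3 days and 0.41 (0.06 to 0.76) at 28 days. Without Apod alone the 28 days difference was -0.18 (-0.44 to 0.08), so the higher ratio in members at 28 days appeared only once Lcn2 was also left out. Gene by gene the median difference was -0.13 over 8 genes at 3 days and -0.11 over 4 genes at 28 days. With all genes the difference was -0.78 (-0.89 to -0.67) and -0.21 (-0.36 to -0.07). Thinned to 300 UMIs the whole list was at 1.15 and 0.70. Fenestrated endothelium genes, among them Plvap, were at 4 near and 22 opposite UMIs at 3 days and at 2 and 17 UMIs at 28 days, too few for a comparison.

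Adhesion and activation genes, which cytokines induce in endothelium, were higher in near members at both times. They summed to 2247 CPM near and 557 CPM opposite at 3 days (2.01, 1.86 to 2.17), with 6 of 7 counted genes past the fold higher, and to 3140 and 413 CPM at 28 days (2.93, 2.74 to 3.12), with 3 of 3. At 28 days 3 further genes, Vcam1, Lcn2 and Cebpd, met the minimum only through the near pool. Lcn2 alone gave 241 of the 608 near UMIs at 28 days and none of the 352 opposite UMIs, and without it the list was at 1895 and 413 CPM (2.20, 1.98 to 2.41). Thinned to 300 UMIs the whole list at 28 days was at 1.44. Vcam1, which binds leukocyte integrins, was at 119 and 38.1 CPM at 3 days (1.66, 0.94 to 2.30) and at 150 and 36.3 CPM at 28 days (2.04, 1.26 to 2.82). Il1r1, the receptor for interleukin 1, was at 178 and 42.1 CPM at 3 days (2.09) and Lrg1, a secreted protein of activated venules, at 137 and 20.1 CPM (2.78). Selp, the selectin that starts leukocyte rolling, had 17 near and 2 opposite UMIs at 3 days (5.99, 4.20 to 9.43) and 0 and 1 UMIs at 28 days. Selp was chosen after its values were seen. Neighbours were higher too, by 2.29 at 3 days and 3.24 at 28 days for the list, so that the difference between members and neighbours was -0.28 (-0.45 to -0.11) and -0.31 (-0.51 to -0.11).

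Lcn2, a secreted iron-carrier binding protein that reactive glia and venous endothelium can make, had 241 UMIs in near members and 0 in opposite members at 28 days, at least 354-fold higher against a floor of 3 counts over the opposite pool. Of the near UMIs 238 lay inside the area. Neighbours inside and around the area held it as well, at 920 CPM near and 0.633 CPM opposite. C3, the central complement protein, had 313 and 0 UMIs at 28 days, at least 460-fold higher, and 20 and 1 UMIs at 3 days.

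Interferon-stimulated and class I antigen presentation genes followed the same order. They were at 1827 and 409 CPM at 3 days (2.16, 1.98 to 2.33), with 6 of 6 counted genes past the fold higher, and at 2040 and 354 CPM at 28 days (2.53, 2.31 to 2.75), with 2 of 2. Neighbours had higher ratios, 2.50 at 3 days and 3.04 at 28 days, and the difference between members and neighbours was -0.35 (-0.54 to -0.15) and -0.52 (-0.75 to -0.29). Thinned to 300 UMIs the ratios in members were 1.20 and 1.08. Isg15, a ubiquitin-like protein, was at 128 and 15.1 CPM at 3 days (3.09), and B2m, the light chain of class I molecules, at 325 and 45.7 CPM at 28 days (2.82). H2-Aa, a class II chain of antigen-presenting cells, was at 485 and 18.8 CPM at 28 days (94 and 16 UMIs, 4.66, 3.92 to 5.56) and Cd74, the class II invariant chain, at 661 and 46.9 CPM (3.81). In neighbours of the same section H2-Aa was at 184 and 10.8 CPM (4.08) and Cd74 at 290 and 16.5 CPM (4.13). Clotting and vessel tone genes were at 1485 and 363 CPM at 3 days (2.03), with 5 of 5 counted genes past the fold higher, and at 707 and 271 CPM at 28 days (1.39). Here too neighbours had higher ratios, 2.28 and 1.99, with differences of -0.24 (-0.46 to -0.03) and -0.61 (-0.93 to -0.28). The 28 days ratio in members was 0.70 when thinned to 300 UMIs and 0.64 with the reference on the injured side, and at 3 days it was 1.37 with the area drawn from single bins. At 3 days Thbd, the thrombomodulin gene, was at 183 and 70.7 CPM (1.38), Plat, the tissue plasminogen activator gene, at 142 and 55.7 CPM (1.36) and Anxa2, a plasminogen-binding protein, at 356 and 31.6 CPM (3.49).

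Basement membrane transcripts at 3 days, taken as a sum, had a higher ratio in members than in neighbours. They summed to 5102 CPM near and 1988 CPM opposite in members (1.36, 1.26 to 1.46) and to 2150 and 1258 CPM in neighbours (0.77), a difference of 0.59 (0.47 to 0.70). The difference was 0.58 (0.43 to 0.72) without Sparc, the most abundant gene, and 0.36 (0.18 to 0.53) without Sparc and Col4a1. Gene by gene the list did not stand above neighbours, with a median difference of 0.029 over 11 genes, of which Col4a2 was past the fold higher and Lamb2, a laminin chain, lower. Of 11 counted genes 8 were past the fold higher near the area. With the reference taken from the injured side the list's ratio in members was 0.68 at 3 days and 0.67 at 28 days. Col4a1, a chain of collagen IV, the main network of the vessel basement membrane, led with 289 near and 397 opposite UMIs, 1320 and 199 CPM (2.73, 2.50 to 2.95). In neighbours Col4a1 was at 386 and 113 CPM (1.78), a difference of 0.95 (0.69 to 1.21). Its partner chain Col4a2 was at 146 and 46.7 CPM in members (1.66) and 64.1 and 45.4 CPM in neighbours (0.51), a difference of 1.15 (0.48 to 1.82). By distance Col4a1 went from 1639 CPM inside the area over 1215, 731 and 283 CPM in the next bands to 186 CPM from 500 to 1000 µm, near the 199 CPM of the opposite side. Sparc, a matrix protein that endothelial cells and glia secrete, was at 1772 and 972 CPM (0.87) with a difference of 0.54 (0.36 to 0.73).

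Fn1, the fibronectin gene, was at 790 and 149 CPM (2.41) and Hspg2, the perlecan gene, at 187 and 34.6 CPM (2.44), and both ratios were matched or passed in neighbours (3.31 and 2.41). Agrn, a proteoglycan that neurons and pericytes also make, was at 320 and 357 CPM (-0.15, -0.53 to 0.20). At 28 days the list was at 4389 and 1777 CPM in members (1.31, 1.18 to 1.43) and at 2968 and 1187 CPM in neighbours (1.32), with no difference beyond counting error (-0.02, -0.15 to 0.11), and thinned to 300 UMIs the ratio in members was 0.33. Without Sparc the 28 days difference was 0.23 (0.04 to 0.42), and without Sparc and Fn1 it was 0.05 (-0.17 to 0.27). Col4a1 was then at 434 and 145 CPM (1.58, 1.16 to 1.99), with a difference from neighbours of 0.35 (-0.08 to 0.79).

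The angiogenic list at 3 days was at 6893 CPM near and 1073 CPM opposite (2.68, 2.59 to 2.78). Vim, the intermediate filament gene of many cells in injured tissue, gave 1113 of its 1509 near UMIs, and without Vim the list was at 1809 and 830 CPM (1.12, 0.96 to 1.28). The 28 days ratio was 2.44 with Vim and 0.33 (0.09 to 0.56) without it. Neighbours had higher ratios, 3.04 and 2.90, with differences of -0.35 (-0.46 to -0.25) at 3 days and -0.47 (-0.61 to -0.32) at 28 days. Without Vim the differences were 0.26 (0.08 to 0.44) at 3 days and -0.24 (-0.48 to 0.01) at 28 days. Vim was at 5084 and 242 CPM in members (4.39) and at 4455 and 117 CPM in neighbours (5.25). Among 14 counted genes 7 were past the fold higher and 1 lower. Apln, the apelin gene that sprouting tip cells express, was at 215 CPM near and 15.6 CPM opposite (47 and 31 UMIs, 3.78, 3.10 to 4.49). In neighbours Apln was at 79.5 and 15.5 CPM (2.36), a difference of 1.42 (0.69 to 2.15). Apln was densest just outside the area, with 4 UMIs inside (73.7 CPM), 43 up to 100 µm (261 CPM) and 21 from 100 to 250 µm (88.3 CPM). Mcam, an adhesion molecule, was at 123 and 25.6 CPM (2.28). The gene past the fold lower was Ramp3, a receptor partner, with 2 near and 100 opposite UMIs (-2.14, -5.52 to -0.57). At 28 days Apln had 5 near and 18 opposite UMIs and no longer met the minimum, and of 8 counted genes 2, Vim and the adrenomedullin receptor gene Calcrl, were past the fold higher and 2, Ramp3 (-1.27) and Trp53i11 (-1.72), lower.

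Cell cycle transcripts were concentrated near the area at 3 days. The 10 genes summed to 140 UMIs in 261 near members and 46 UMIs in 1771 opposite members, 640 and 23.1 CPM (4.78, 4.30 to 5.31). Each gene had fewer than 50 UMIs, so none was measured alone. Mki67 had 32 and 8 UMIs, and Top2a 31 and 6, both chosen after their values were seen. The list fell from 737 CPM inside the area over 607, 193, 131 and 40.2 CPM to 14.8 CPM beyond 1000 µm. Neighbours had 424 and 18.8 CPM (4.49), a difference from members of 0.29 (-0.22 to 0.80), so which cell in a bin carried these transcripts was not resolved. At 28 days 10 near and 4 opposite UMIs were left.

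**Figure D5:**
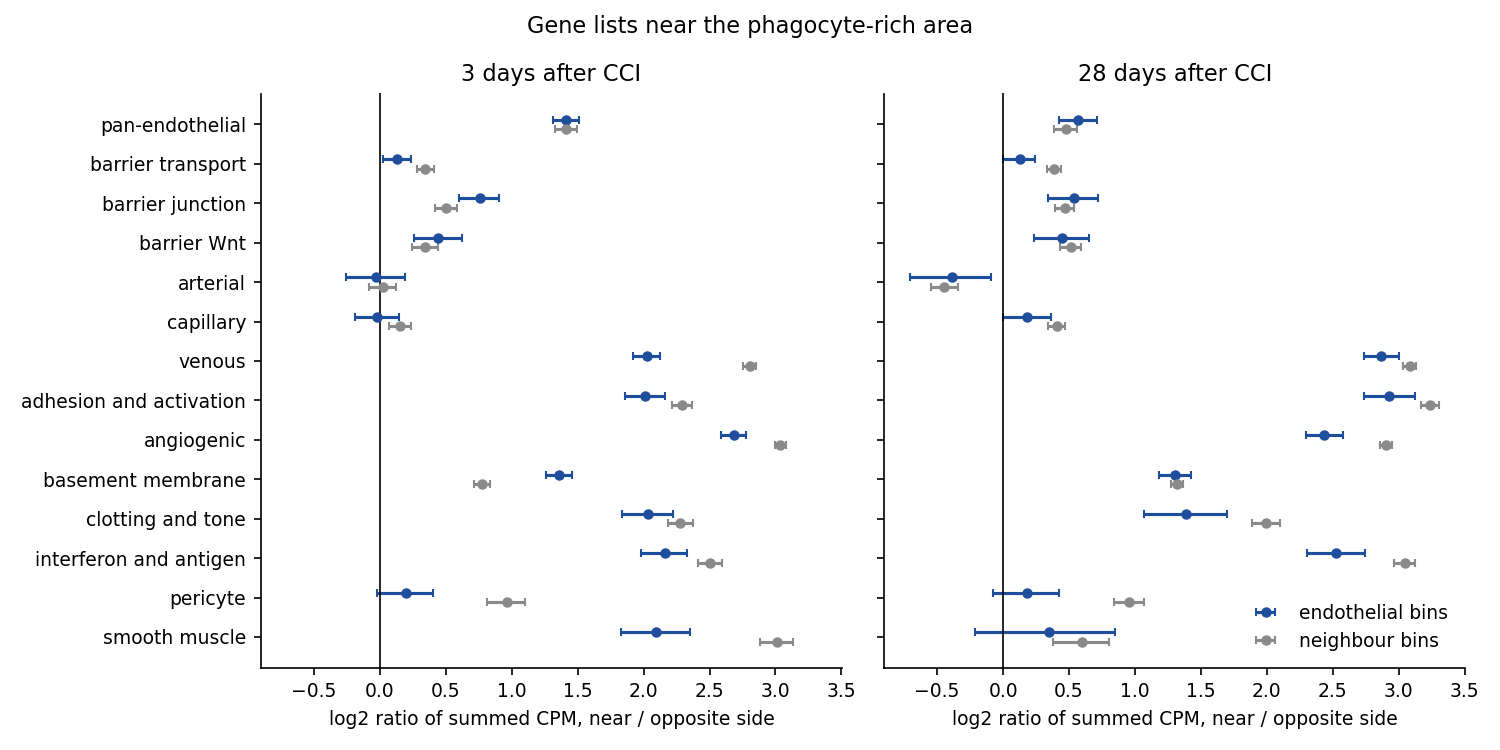
Log2 ratio of summed CPM, near over opposite side (x axis), for 14 gene lists in endothelial bins (blue) and neighbours (grey) at 3 days (left) and 28 days (right), with 95% intervals for counting error. At 3 days basement membrane genes were at 1.36 in endothelial bins and 0.77 in neighbours, while pericyte genes were at 0.20 and 0.96.

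Pericyte genes had a lower ratio in members than in the tissue around them. The list, with Pdgfrb, Rgs5 and Vtn among its genes, was at 964 CPM in near and 842 CPM in opposite members at 3 days (0.20, -0.02 to 0.40), with 0 of 7 counted genes past the fold higher and 1, Atp13a5, lower. Of all counted genes 9.73% were past the fold higher and 14.2% lower. In neighbours the pericyte list was at 394 and 202 CPM (0.96, 0.82 to 1.10), a difference of -0.76 (-1.01 to -0.51). At 28 days it was at 857 and 758 CPM in members (0.18, -0.08 to 0.43) and at 456 and 235 CPM in neighbours (0.95), a difference of -0.77 (-1.04 to -0.50). The ratio in members turned to -0.50 at 3 days and -0.29 at 28 days when thinned to 300 UMIs. The rule takes bins with Myh11 or Acta2 out of the members, and Acta2 can also be present in pericytes and myofibroblasts, so mural levels in members depend on it. The other smooth muscle genes were at 818 and 192 CPM in members at 3 days (2.10), 3 of 5 past the fold higher, and at 639 and 79.4 CPM in neighbours (3.01), a difference of -0.92 (-1.20 to -0.63) that was 0.10 (-0.31 to 0.52) without Tagln. At 28 days they were at 207 and 164 CPM in members (0.34) and 0.60 in neighbours, a difference of -0.25 (-0.80 to 0.29), and the direction in members turned when smooth muscle bins were kept (-0.33). Tagln itself was at 429 and 32.6 CPM in members at 3 days (3.72) and at 484 and 11.1 CPM in neighbours (5.44).

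Markers of other cell types differed with position in the same bins. The 14 phagocyte genes, among them C1qa, Tyrobp and Fcer1g, were at 2997 and 755 CPM in members at 3 days, 9 of 9 counted genes past the fold higher, and at 10741 and 672 CPM at 28 days, 5 of 5. Cd68 and Lyz2 drew the area, so a high phagocyte level near it follows from how the area was drawn. Fibroblast genes were at 1128 and 273 CPM at 3 days and 1028 and 169 CPM at 28 days, with 4 of 4 counted genes past the fold higher at 3 days and none counted at 28 days. Blood leukocyte genes were at 201 and 25.1 CPM at 3 days and 465 and 15.2 CPM at 28 days, and red cell genes at 132 and 10.5 CPM at 3 days. Astrocyte genes were at 5578 and 5581 CPM at 3 days and at 12274 and 4706 CPM at 28 days, when Gfap was at 5649 and 168 CPM. At 3 days 2 of 8 were past the fold higher and 3 lower. Without Gfap the sum was lower near the area at 3 days, at 3024 and 5180 CPM (-0.78, -0.89 to -0.66). It was still higher at 28 days, at 6625 and 4539 CPM (0.55). Oligodendrocyte genes were at 4605 and 2398 CPM at 3 days, 2 of 6 past the fold higher, and at 4560 and 3115 CPM at 28 days, 0 of 6. Neuron genes were lower, at 2279 and 6230 CPM at 3 days, 6 of 8 past the fold lower, and at 1255 and 7500 CPM at 28 days, 8 of 8. Choroid plexus and ependyma genes were at 416 and 1436 CPM at 3 days (-1.78) and at 238 and 2285 CPM at 28 days (-3.25), and this direction turned with the reference taken from the far part of the injured side (2.26 and 1.32). Ttr weighed on both sums. Without it the 3 days ratio was 1.12 (0.49 to 1.68), and without Foxj1 and Ttr the 28 days ratio was 0.04 (-1.04 to 0.92). Phagocytes, leukocytes, fibroblasts and astrocytes can express genes of the adhesion, interferon, clotting and basement membrane lists, and their part in these results was not tested.

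Over all genes with at least 200 UMIs, those furthest above the opposite side at 3 days were Spp1 (5.22), Vim, Tagln2 (3.69), Msn (3.36), Tm4sf1 (3.24), Serpina3n, Trf, Col4a1, Gfap and Fabp7, several of them members of the lists above, and at 28 days C3, Lcn2, Gpnmb (8.68) and Serpina3n (6.52) led. Of the 10 highest, 5 at 3 days and all 10 at 28 days reached 200 UMIs only through the near pool, so their place was set in part by this minimum. Tm4sf1, a membrane protein of endothelial and other cells, was at 1037 and 110 CPM in members at 3 days and at 397 and 34.4 CPM in neighbours (3.53). The lowest at 3 days included the neuron genes Fgf13 (1 and 290 UMIs) and Vsnl1 (8 and 1226 UMIs). At 28 days they included Ttr, the transthyretin gene of the choroid plexus, at 82.6 and 2207 CPM (16 and 1883 UMIs, -4.70, -5.55 to -4.04). The hypothalamic hormone genes Oxt and Avp had 0 near UMIs in both sections. Oxt was at least 21.5-fold lower at 3 days and 5.52-fold at 28 days, and Avp at least 7.32-fold and 72.9-fold, against the same floor. With the wider area at 3 days Avp was higher near it by 1.13 on the log2 scale.

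Genes that stood above the neighbours in members of the opposite side did so by less near the area. To choose them without the section in which they were measured, genes at least 2-fold higher in members than in neighbours on the opposite side of the other section were taken, 417 for the 3 days section and 692 for the 28 days section. Of these 262 and 123 were measured. Their median ratio of members over neighbours was 1.16 near against 1.70 opposite at 3 days, and 0.88 against 1.49 at 28 days. The median difference was -0.54 and -0.52, against -0.03 and -0.07 over all genes, with 4 past the fold higher and 61 lower at 3 days and 1 and 29 at 28 days. Over all genes 1.72% were past the fold higher and 5.03% lower at 3 days, and 0.979% and 4.6% at 28 days. The genes were chosen for a high ratio on the opposite side, so a smaller ratio near the area was favoured by the choice. Taking them from the other section does not remove this where both opposite sides share anatomy. Itih5, a protein that stabilises hyaluronan in the matrix, had the lowest difference at 3 days, at 64.0 and 114 CPM in members and 66.8 and 24.6 CPM in neighbours (-2.23, -3.07 to -1.39). At 28 days it was Tm4sf1, at 269 and 98.4 CPM in members and 237 and 25.7 CPM in neighbours (-1.75, -2.29 to -1.21). Neighbours were chosen by 0 UMIs of the rule genes and were shallower near the area (median 548 against 962 UMIs at 3 days), and the part of this depth in the smaller ratio was not tested.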

How the data were processed

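Visium HD counts of 2 sections, 1 mouse each, were taken as the authors deposited them: raw UMI counts per 16 µm bin for 19070 genes, made with Space Ranger 4.0.1 per the file headers and mouse probe set version 2.0 per the methods, with mm10 in the submitters' processing notes. Each section's group was its labelled day. Members, gene lists and comparisons were chosen with earlier results of these data known.

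The labels do not give the injured side, which was taken from the array columns in which Cd68 and Lyz2 were high (97.0 against 20.3 CPM at 3 days, 272 against 15.6 CPM at 28 days). The phagocyte-rich area was made of bins on the injured side whose 5 by 5 bin window held more Cd68 and Lyz2 UMIs, as a share, than 99.9% of opposite-side windows, in connected patches of at least 25 bins. Counts were summed over members or neighbours of a zone, divided by the summed total, and compared with a pseudocount of 0.5 UMIs for genes with at least 50 UMIs in both pools together, without rule genes, Cd68 and Lyz2. Ratios have exact conditional binomial intervals, shares exact Clopper-Pearson intervals, and differences of ratios and ratios per pan-endothelial UMI normal intervals from Poisson variances, all at 95%.

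Named genes were, per list of the 24, up to 6 past the fold with an interval leaving out 0, then the most abundant. To these were added the 10 at each end of the difference from neighbours among genes enriched in members of the other section (at least 100 UMIs), the 10 highest over neighbours near the area, and the 10 at each end of the near ratio (at least 200 UMIs). Genes outside the rule are marked as chosen after their values were seen. Clusters and doublets were not called, since bins are not cells. Some genes are not reported here. Sums of lists without their most abundant near genes were added after seeing the data. Scripts ran in Python 3.11.15 with numpy 2.4.6, scipy 1.17.1, pandas 2.3.3 and matplotlib 3.10.9. On simulated counts for the near comparison at 3 days, over 8510 genes, 100% of genes made 4-fold higher and 91% of those made 4-fold lower passed the fold, as did 3.63% of unchanged genes. At 28 days, over 5577 genes, the shares were 100%, 95% and 1.82%. The simulated counts were drawn from the levels of the opposite side with counting error alone. They hold no patchiness between bins and no difference of anatomy, so these shares are not error rates of the real comparison. Alternatives covered the membership rule, depth, area, near zone, reference, scaling, pseudocount, gene filter and neighbours.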

Additional observations from a re-analysis of the deposited data

How the results depend on the processing

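All values stand on 1 section a day, so none can be set against the spread between mice. No paired analysis was possible because each group holds 1 section, and no replicate could be left out. Depth limited the near bins, whose thinned pools left 305 genes measured at 3 days and 87 at 28 days. The 4 alternatives on ventral patches, smooth muscle bins, fibroblast or choroid members and reference rows were chosen after seeing the data. In the thinned setting the area was drawn anew from the thinned bins, unlike in the thinned shares given above. A gene minimum changes by construction how many genes are counted, and a changed membership rule changes the share of members on both sides. With at least 3 marker UMIs members were 104 of 5254 near and 493 of 80501 opposite bins at 3 days. At 28 days they were 46 of 10032 and 185 of 53838. The shares below are of near bins only and are not to be set against the opposite shares above. Settings can also change how many genes were measured, so the gene counts below are not shares. Near the area 8651 genes were measured at 3 days, 3761 with at least 3 marker UMIs and 4188 with the reference on the injured side. At 28 days the numbers were 5721, 867 and 1528. With the reference in the array rows of the near zone they were 5205 at 3 days and 2704 at 28 days. Against neighbours they were the same. By side at least 3 marker UMIs left 5913 of 10209 and 1517 of 7242 genes. The cause of the other changes was not tested. The share of endothelial bins near the area at 3 days was 4.97% and went to 1.98% (at least 3 marker UMIs), 3.39% (Cldn5, Cdh5 and Flt1 alone as markers), 3.63% (no minimum UMIs per bin), 1.77% (bins thinned to 300 UMIs), 6.01% (smooth muscle bins kept) and 3.06% (members with fibroblast or choroid UMIs left out). The share of endothelial bins near the area at 28 days was 1.94% and went to 0.459% (at least 3 marker UMIs), 1.62% (Cldn5, Cdh5 and Flt1 alone as markers), 0.707% (bins thinned to 300 UMIs), 2.25% (at least 200 UMIs per bin), 2.25% (smooth muscle bins kept) and 1.44% (members with fibroblast or choroid UMIs left out). The log2 ratio of pan-endothelial genes at 3 days was 1.41 and went to 1.30 (at least 3 marker UMIs), 0.70 (bins thinned to 300 UMIs), 1.22 (the area at the 99th percentile), 0.74 (the area from single bins), 1.11 (the near zone within 250 µm), 1.61 (the reference on the injured side), 1.23 (TMM scaling) and 1.54 (the reference in the array rows of the near zone). The log2 ratio of pan-endothelial genes at 28 days was 0.57 and went to 0.39 (at least 3 marker UMIs) and 0.060 (bins thinned to 300 UMIs). That of barrier carriers at 3 days was 0.13 and went to 0.25 (Cldn5, Cdh5 and Flt1 alone as markers), -0.010 (no minimum UMIs per bin), -0.21 (bins thinned to 300 UMIs), 0.018 (the area from single bins), -0.053 (TMM scaling) and 0.32 (the reference in the array rows of the near zone). That of barrier carriers at 28 days was 0.12 and went to -0.091 (at least 3 marker UMIs), -0.0022 (bins thinned to 300 UMIs), -0.11 (the reference on the injured side) and -0.029 (the reference in the array rows of the near zone). Per pan-endothelial UMI the carriers' ratio at 3 days was -1.28 and went to -1.45 (no minimum UMIs per bin), -0.90 (bins thinned to 300 UMIs), -1.0004 (the area at the 99th percentile), -0.72 (the area from single bins), -0.98 (the near zone within 250 µm) and -1.51 (the reference on the injured side). Per pan-endothelial UMI the carriers' ratio at 28 days was -0.44 and went to -0.051 (bins thinned to 300 UMIs). At 3 days 994 genes were past the fold higher and 1190 lower near the area, against 361 higher and 745 lower (at least 3 marker UMIs), 19 higher and 89 lower (bins thinned to 300 UMIs), 600 higher and 318 lower (the area from single bins), 571 lower (the near zone within 250 µm), 1928 lower (the near zone inside the area only), 407 higher and 598 lower (the reference on the injured side), 4593 higher (genes of at least 1 UMI), 174 higher and 557 lower (genes of at least 200 UMIs) and 519 higher and 780 lower (the reference in the array rows of the near zone). At 28 days 474 genes were past the fold higher and 1318 lower near the area, against 82 higher and 333 lower (at least 3 marker UMIs), 7 higher and 25 lower (bins thinned to 300 UMIs), 214 higher and 340 lower (the reference on the injured side), 3373 higher and 2620 lower (genes of at least 1 UMI), 72 higher and 361 lower (genes of at least 200 UMIs) and 288 higher and 693 lower (the reference in the array rows of the near zone). At 3 days 371 genes were past the fold higher and 164 lower by side, against 204 higher (at least 3 marker UMIs), 14 higher and 33 lower (bins thinned to 300 UMIs), 2512 higher and 1382 lower (genes of at least 1 UMI), 79 higher and 92 lower (genes of at least 200 UMIs) and 243 higher (members with fibroblast or choroid UMIs left out). At 28 days 289 genes were past the fold higher and 119 lower by side, against 68 higher and 50 lower (at least 3 marker UMIs), 15 higher and 5 lower (bins thinned to 300 UMIs), 2712 higher and 1455 lower (genes of at least 1 UMI), 55 higher and 21 lower (genes of at least 200 UMIs) and 162 higher (members with fibroblast or choroid UMIs left out). At 3 days 149 genes were past the fold higher and 435 lower against neighbours, against 86 higher and 249 lower (at least 3 marker UMIs), 357 higher and 739 lower (no minimum UMIs per bin), 11 higher and 25 lower (bins thinned to 300 UMIs), 71 higher and 272 lower (the area at the 99th percentile), 20 higher and 125 lower (the area from single bins), 56 higher and 208 lower (the near zone within 250 µm), 1060 higher and 1118 lower (the near zone inside the area only), 35 higher and 117 lower (the reference on the injured side), 238 higher and 203 lower (a pseudocount of 2), 1652 higher and 1896 lower (genes of at least 1 UMI), 5 higher and 40 lower (genes of at least 200 UMIs), 243 higher (the 8 touching neighbours), 288 higher (members with fibroblast or choroid UMIs left out) and 30 higher and 129 lower (the reference in the array rows of the near zone). At 28 days 56 genes were past the fold higher and 263 lower against neighbours, against 10 higher and 70 lower (at least 3 marker UMIs), 37 higher (Cldn5, Cdh5 and Flt1 alone as markers), 2 higher and 3 lower (bins thinned to 300 UMIs), 34 higher (the area at the 99th percentile), 30 higher and 170 lower (the area from single bins), 36 higher (the near zone within 250 µm), 166 higher (the near zone inside the area only), 8 higher and 85 lower (the reference on the injured side), 37 higher (TMM scaling), 92 higher and 116 lower (a pseudocount of 2), 1715 higher and 1997 lower (genes of at least 1 UMI), 1 higher and 24 lower (genes of at least 200 UMIs), 108 higher (the 8 touching neighbours) and 11 higher and 94 lower (the reference in the array rows of the near zone). Leaving out members with fibroblast or choroid UMIs removed every member with Ttr, Folr1, Kl or Clic6, or with Dcn, Lum, Col1a1, Col1a2 or Col3a1. By construction the choroid and fibroblast ratios in that setting rest on the other genes of their lists. These directions turned, with other causes not tested. Choroid plexus and ependyma genes in members at 3 days went from -1.78 to 1.13 (at least 3 marker UMIs), 1.83 (bins thinned to 300 UMIs), 0.095 (the area at the 99th percentile), 3.05 (the area from single bins), 2.26 (the reference on the injured side), 2.68 (members with fibroblast or choroid UMIs left out). Avp in members at 3 days, at 0 near UMIs and at least 7.32-fold lower, went to 1.13 (the area at the 99th percentile), 0.089 (the area from single bins). Slc22a8 in members at 3 days went from -1.29 to 0.058 (the area at the 99th percentile). Fgf13 against neighbours at 3 days went from -2.49 to 0.45 (the near zone inside the area only). Car4 against neighbours at 3 days went from 1.19 to -0.26 (the reference on the injured side). Choroid plexus and ependyma genes in members at 28 days went from -3.25 to 0.45 (at least 3 marker UMIs), 1.25 (bins thinned to 300 UMIs), 1.22 (the area from single bins), 0.15 (the near zone within 250 µm), 1.32 (the reference on the injured side), 2.28 (members with fibroblast or choroid UMIs left out). C3 against neighbours at 28 days, higher with 0 opposite UMIs, went to -0.64 (at least 3 marker UMIs), -0.81 (the reference on the injured side). Red cell genes in members at 28 days, at 2 near and 1 opposite UMIs, went to -0.75 (the reference on the injured side). Of the other list ratios in members, these turned direction by more than their counting interval: pericyte genes at 3 days (0.20) to between -0.50 and -0.02 in 5 alternatives, astrocyte genes at 3 days (-0.00046) to between 0.093 and 0.32 in 5 alternatives, Wnt genes at 3 days (0.44) to -0.17, arterial genes at 3 days (-0.028) to between 0.24 and 0.86 in 2 alternatives, pericyte genes at 28 days (0.18) to between -0.29 and -0.17 in 3 alternatives, arterial genes at 28 days (-0.39) to 0.0081, smooth muscle genes at 28 days (0.34) to between -0.33 and -0.24 in 2 alternatives and oligodendrocyte genes at 28 days (0.55) to -0.094. These kept their direction but moved by over 1.5 times: smooth muscle genes at 3 days (2.10) to between 0.99 and 1.47 in 4 alternatives, fibroblast genes at 3 days (2.05) to between 1.02 and 2.73 in 4 alternatives, red cell genes at 3 days (3.64) to between 2.02 and 5.32 in 6 alternatives, neuron genes at 3 days (-1.45) to between -2.30 and -0.39 in 5 alternatives, venous genes at 3 days (2.02) to 1.15, interferon genes at 3 days (2.16) to 1.20, phagocyte genes at 3 days (1.99) to between 0.95 and 2.78 in 2 alternatives, oligodendrocyte genes at 3 days (0.94) to 0.30, angiogenic genes at 3 days (2.68) to 1.82, clotting genes at 3 days (2.03) to 1.37, cell cycle genes at 3 days (4.78) to between 3.60 and 4.17 in 3 alternatives, blood leukocyte genes at 3 days (3.00) to between 1.95 and 3.89 in 2 alternatives, basement membrane genes at 3 days (1.36) to 0.68, fibroblast genes at 28 days (2.60) to between 0.046 and 3.34 in 4 alternatives, venous genes at 28 days (2.87) to 0.70, adhesion genes at 28 days (2.93) to 1.44, angiogenic genes at 28 days (2.44) to 1.11, basement membrane genes at 28 days (1.31) to between 0.33 and 0.67 in 2 alternatives, clotting genes at 28 days (1.39) to between 0.64 and 0.70 in 2 alternatives, interferon genes at 28 days (2.53) to 1.08, phagocyte genes at 28 days to between 3.14 and 3.38 in 2 alternatives, blood leukocyte genes at 28 days (4.88) to between 2.18 and 6.20 in 3 alternatives, neuron genes at 28 days (-2.58) to between -3.57 and -1.50 in 4 alternatives and oligodendrocyte genes at 28 days (0.55) to 1.19.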
